A study of Mus musculus with 14 samples.

Results

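The high-fat count table held 105801 intervals of accessible liver chromatin, and 27013 of them (25.5%) shared no base with any of the 88203 intervals of the chow table. These 27013 intervals without a chow counterpart are the subject here, and they were chosen by coordinates alone: all intervals have the same width, and an overlap of 1 base was enough to leave it out. The other 78788 high-fat intervals (74.5%) overlapped a chow interval and serve as the comparison. In the other direction, 10055 chow intervals (11.4%) had no high-fat overlap. The values that chose the members are thus the authors' interval calls on the libraries of each diet, so position, level and the genotype of the call are given as description, with no test.

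The data are ATAC-seq, in which a transposase cuts open DNA and adds sequencing adapters to it, from nuclei of 50 mg frozen liver of female mice. The high-fat table held 4 Matr3-floxed animals (flox) and 4 littermates with the same floxed gene plus an Albumin-Cre transgene (LKO, the liver-specific knockout), all put at 7 weeks of age on a high-fat diet (60 kcal% fat), kept on it for 16 weeks and fasted for 12 h before collection. The chow table held 3 flox and 3 LKO animals, which spent 16 weeks on ordinary chow, also from 7 weeks of age. Whether these chow animals were fasted before collection, the sources used here do not say. Matr3 encodes matrin-3, a nuclear matrix protein that binds DNA and RNA. Albumin-Cre is active in hepatocytes, and liver cells in which it is not active keep the floxed gene intact. The liver is bulk tissue, in which fewer cells of a type and less open chromatin per cell cannot be told apart.

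Open chromatin in liver marks promoters and, further away, enhancers to which liver factors and hormone-controlled factors bind. Gene bodies of strongly transcribed metabolic genes can be open over long stretches. In liver, fasting and dietary fat act through nuclear receptors such as PPAR alpha, the receptor for fatty acids encoded by Ppara, and through insulin and glucagon signalling.

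Each diet had its own interval calls and its own table, and chow reads were not counted at the intervals without a chow counterpart. Their absence from the chow table therefore says that no chow interval was listed there, not that the chromatin was closed on chow. Diet, fasting, table and sequencing depth cannot be told apart in this membership. Reads within intervals numbered 7.59 to 10.4 M per library in the high-fat table and 15.5 to 35 M in the chow table, so the deeper libraries gave the shorter list. The members took between 12.6% and 14.4% of the reads of each high-fat library, and the 2 genotypes overlapped in that share. All 18 hepatocyte identity genes had intervals in the high-fat table, and their summed level was 4230 to 5540 CPM (read counts scaled to the reads in intervals of each library) in LKO and 5351 to 6531 CPM in flox libraries. The Kupffer and macrophage list summed to 832 to 879 CPM in LKO and 751 to 853 CPM in flox libraries, with intervals at 19 of its 22 genes. Sinusoidal endothelial genes summed to 1254 to 1442 CPM in LKO and 1331 to 1511 CPM in flox libraries, and the summed lymphocyte, neutrophil, stellate and biliary lists overlapped between genotypes too. Of those lists 10 of 22, 4 of 12, 5 of 20 and 3 of 12 genes had no interval. The part of cell composition in the differences below was not tested. Matr3 itself had 7 high-fat intervals, 1 of them without a chow counterpart. Its levels were 4.29 ± 1.77 CPM in flox and 3.39 ± 0.642 CPM in LKO (SD, n = 4; edgeR adjusted p = 0.769). Where the deletion lies within Matr3 the sources used here do not say, and the genotype labels could not be checked from its intervals.

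Among the members that differed between genotypes, 3 overlapped the start window of a RefSeq gene (250 bases before to 50 after a listed start, GRCm38.p6, the assembly that mm10 names), and their sequences are shown because they are the called members closest to a known transcription start. The first is D7Ertd143e, a long noncoding RNA at the miR-290 cluster, at chr7:3218534-3218833 on the plus strand, with all 300 bases inside a called member. Capitals mark the 83-base Mir290a hairpin in this window. It lies within the 250 bases before the listed start, so a transcript from that start would not include it.
D7Ertd143e: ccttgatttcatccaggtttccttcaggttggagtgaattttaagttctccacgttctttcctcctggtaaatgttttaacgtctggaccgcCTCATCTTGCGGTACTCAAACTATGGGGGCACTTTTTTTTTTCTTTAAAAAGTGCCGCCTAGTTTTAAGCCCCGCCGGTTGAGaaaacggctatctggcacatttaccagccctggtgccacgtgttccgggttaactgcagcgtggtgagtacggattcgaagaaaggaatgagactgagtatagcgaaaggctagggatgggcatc
The second is Gm36749 at chr2:173142555-173142854 and the third Gm42093 at chr11:109734577-109734876, both on the plus strand with 211 of 300 bases inside a called member. In Gm42093 the capitals mark a CCAAT box (CCAAT on either strand, here on the minus strand), and Gm36749 has no capitals because none of the 5 motifs searched was found in it.
Gm36749: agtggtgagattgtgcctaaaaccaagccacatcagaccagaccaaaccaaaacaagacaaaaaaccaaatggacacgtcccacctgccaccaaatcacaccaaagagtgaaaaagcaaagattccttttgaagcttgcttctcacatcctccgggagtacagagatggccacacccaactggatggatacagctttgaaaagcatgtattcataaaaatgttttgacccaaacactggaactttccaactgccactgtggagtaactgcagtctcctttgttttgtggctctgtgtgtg
Gm42093: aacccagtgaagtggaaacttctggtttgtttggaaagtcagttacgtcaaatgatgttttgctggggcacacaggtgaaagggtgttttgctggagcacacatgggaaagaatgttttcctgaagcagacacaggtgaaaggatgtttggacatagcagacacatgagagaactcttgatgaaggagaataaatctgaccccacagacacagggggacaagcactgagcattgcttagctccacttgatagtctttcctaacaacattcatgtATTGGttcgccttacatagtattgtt

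The miR-290 cluster encodes microRNAs known for their abundance in mouse embryonic stem cells, where members with the AAGUGC core in their seed promote cell-cycle progression. Mature microRNAs of the cluster's plus strand that lie in 2 called members are shown next (miR-290b-5p and miR-290b-3p, from the minus strand at Mir290a, lie there too and are not shown) from RefSeq with the seed (bases 2 to 8) in capitals, since the seed decides which targets a microRNA can pair with.
mmu-miR-290a-5p: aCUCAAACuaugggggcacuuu
mmu-miR-290a-3p: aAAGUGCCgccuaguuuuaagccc
mmu-miR-291a-5p: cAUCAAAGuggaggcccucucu
mmu-miR-291a-3p: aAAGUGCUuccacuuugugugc
mmu-miR-291b-5p: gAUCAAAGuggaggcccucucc
mmu-miR-291b-3p: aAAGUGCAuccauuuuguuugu
The 5p strands of miR-291a and miR-291b shared 1 seed, AUCAAAG. Of miR-291a-3p, 13 of 22 bases lay inside the member, and its seed AAGUGCU is shared with miR-294-3p, which lies in the next interval of the cluster, one that overlaps a chow interval.
mmu-miR-294-3p: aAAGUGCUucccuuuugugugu
Accessibility was measured here, not the RNA. In all, 34 of 1005 listed hairpins overlapped 28 members, and 2 of those members were called, against 1.07% called over all members. Both lie in the miR-290 cluster, which was picked out after its values were seen. The count is therefore no result about members with hairpins.

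The members had lower levels than the intervals that overlap chow, and a smaller share lay at gene ends. Their median level over the 8 high-fat libraries was 4.70 CPM, with quartiles of 3.99 and 5.61, against a median of 8.15 CPM and quartiles of 5.77 and 13.1 for overlapping intervals. The highest member reached 68.5 CPM, and 98.5% of the members had at least 10 reads in every library. The authors' own score per interval, whose scale the sources used here do not give, had a median of 3.63 in members and 8.59 in overlapping intervals. Gene ends, meaning within 1000 bp of either bound of a protein-coding gene, held 13.8% of the members and 26.0% of the overlapping intervals. Gene bodies held 54.5% and 45.8%, and 31.7% and 28.2% were intergenic. No protein-coding gene lay within 50000 bp of 2787 members (10.3%), against 6073 overlapping intervals (7.71%).

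Distance to the nearest chow interval ran from 0 to 3093720 bases, with a median of 2241 and quartiles of 494 and 8764. Within 500 bases of a chow interval lay 6809 members (25.2%), and 2243 lay more than 50000 bases away. At the border of the rule, 1448 members lay 0 to 50 bases from a chow interval, with a median of 6.20 CPM, and 936 excluded intervals overlapped one by 1 to 50 bases, with a median of 6.21 CPM. Median level fell with distance, from 5.17 CPM at 51 to 500 bases to 4.27 CPM beyond 50000 bases.

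**Figure D1:**
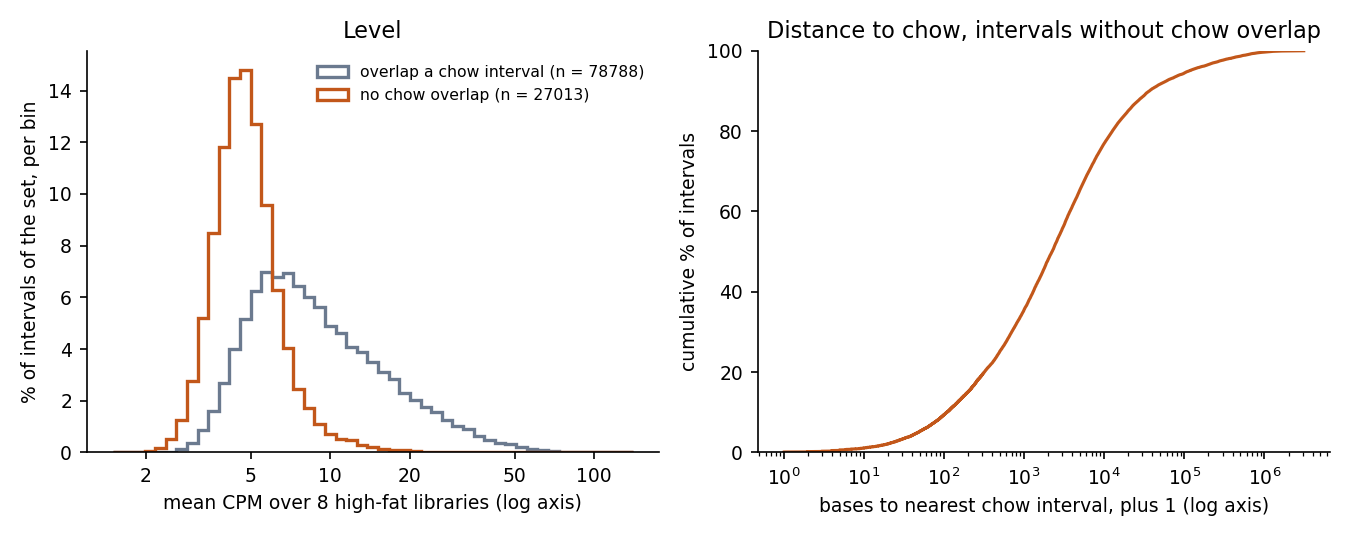
The left panel plots the share of intervals (y axis, percent per bin) by mean CPM over 8 high-fat libraries (x axis, log scale) for the 27013 intervals without and the 78788 with chow overlap. The right panel plots the cumulative percent of the intervals without chow overlap by distance to the nearest chow interval in bases. Intervals without chow overlap centre on 4.70 CPM against 8.15 CPM, and the distance curve passes its midpoint near 2241 bases.

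By chromosome, members made up between 13.2% of the high-fat intervals on chromosome X and 35.7% on chromosome 19, with 31.0% on chromosome 5 next. Members lay nearest to 8700 of the 16270 protein-coding genes that had any interval within 50000 bp. A run, meaning consecutive high-fat intervals at most 5000 bp apart that are all members, was usually a single interval: 62.3% of the members stood alone, and 1051 lay in 70 runs of 10 or more.

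The genes with most members were Adk, Gfra1, Cpt1a, Ppara and Mtss1. Adk, adenosine kinase, had 179 members among its 215 high-fat intervals (83.3%), including the longest run of all, 49 members over 72253 bp (chr14:21287137-21359389). Gfra1, a co-receptor of glial cell line-derived neurotrophic factor, had 81 of 94. Cpt1a, which encodes the carnitine transferase that admits fatty acids to mitochondria, had 70 of 88, of which 30 lay in 1 run of 24053 bp (chr19:3354368-3378420). Ppara had 70 of 108 and Mtss1, an actin-bundling membrane protein, 70 of 185. Scp2, a peroxisomal sterol carrier and thiolase, had 57 of 81. Lpin1, a phosphatidate phosphatase of triglyceride synthesis, had 54 of 73, and Por, the electron donor of microsomal cytochromes P450, had 49 of 68. The median level was 7.19 CPM in the Cpt1a run and 5.28 CPM in the longest Adk run. A run of 27 members reached across Lpin2, another phosphatidate phosphatase, and its neighbour Emilin2, which encodes an extracellular matrix glycoprotein.

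Some of the highest shares fell in multi-copy gene families, where reads may be divided among near-identical copies. On chromosome 5, Pramel38, Pramel44 and Pramel45, of a family expressed in germ cells, had members at all of their 21, 25 and 38 intervals. Beside them Gm46934 had 46 of 47, Gm16513 28 of 29 and Gm3183 34 of 36. The sources used here do not give how reads with several matches were handled, so these values are uncertain. None of the members at these 6 genes was called between genotypes.

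The long runs differed widely between animals of 1 genotype. Summed over all 179 Adk members, levels were 986, 1120, 820 and 1114 CPM in LKO 1 to 4, and 1261, 1165, 804 and 747 CPM in flox 1 to 4. Flox 1 and flox 2 were highest and flox 4 lowest, and the groups overlapped. The 30 members of the Cpt1a run summed to 277, 278, 191 and 242 CPM in LKO, and to 219, 214, 161 and 196 CPM in flox. All 30 had a positive fold change (median log2 0.35), none was called, and the sums overlapped. Flox libraries also differed at Upp2, a uridine phosphorylase: its 39 members summed to 388 and 391 CPM in flox 1 and flox 2, but to 121 and 204 CPM in flox 3 and flox 4. In LKO 1 to 4 they summed to 231, 142, 154 and 101 CPM, so the groups overlapped.

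Between genotypes on the high-fat diet, members were called higher in LKO more often than lower. The edgeR quasi-likelihood test with Benjamini-Hochberg adjustment over all 105801 intervals at 0.05 called 288 of the 27013 members (1.07%), 222 higher and 66 lower in LKO. Over the whole high-fat table it called 795 intervals (0.751%), with 0.448% higher and 0.303% lower, and among the overlapping intervals 507 (0.643%), of which 252 were higher and 255 lower. Higher calls were thus 77.1% of the called members and 49.7% of the called overlapping intervals. The median log2 fold change was 0.06 over all members and -0.02 over the overlapping intervals. The 4 LKO and 4 flox values did not overlap at 1576 members (5.83%), against 5.3% of all high-fat intervals. The difference between the sets was not tested, because intervals entered the table through calls on these same libraries. Of the 222 higher members 221 carried the name of an LKO call, and 64 of the 66 lower ones that of a flox call. Spread between animals was wider in members, the biological coefficient of variation being 0.228 against 0.155.

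Called shares were also set side by side at like levels. Among intervals of 8 to 12 CPM, 42 of 1090 members were called (3.85%), against 153 of 17790 overlapping intervals (0.860%). Between 4 and 5 CPM the shares were 0.668% and 0.414%. By distance, the called share was 0.622% within 50 bases of a chow interval, 1.51% beyond 500 and up to 2000 bases and 0.401% beyond 50000 bases. On the other side of the border, 12 of the 936 intervals that overlap chow by 1 to 50 bases were called (1.28%). That was above the shares of members within 50 bases and of all members (1.07%). Members at least 500 bases from chow were called at 1.15%, 183 higher and 49 lower.

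Single animals decided much of the count. With 1 library left out, edgeR called 133 members without LKO 3, 104 without LKO 4, 159 without flox 2 and 121 without flox 4. It called 388, 231, 318 and 386 without LKO 1, LKO 2, flox 1 and flox 3. Higher calls fell to 111, 86, 128 and 99 without LKO 3, LKO 4, flox 2 and flox 4, and lower calls to 22, 18, 31 and 22, while lower calls numbered 134 without flox 3. Only 64 members, 55 higher and 9 lower, were called in all 8 of these fits. The test limma voom with quality weights called 185 members (0.685%) and 471 overlapping intervals (0.598%). The 2 shares thus lay closer together than the 1.07% and 0.643% of the edgeR fit.

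**Figure D2:**
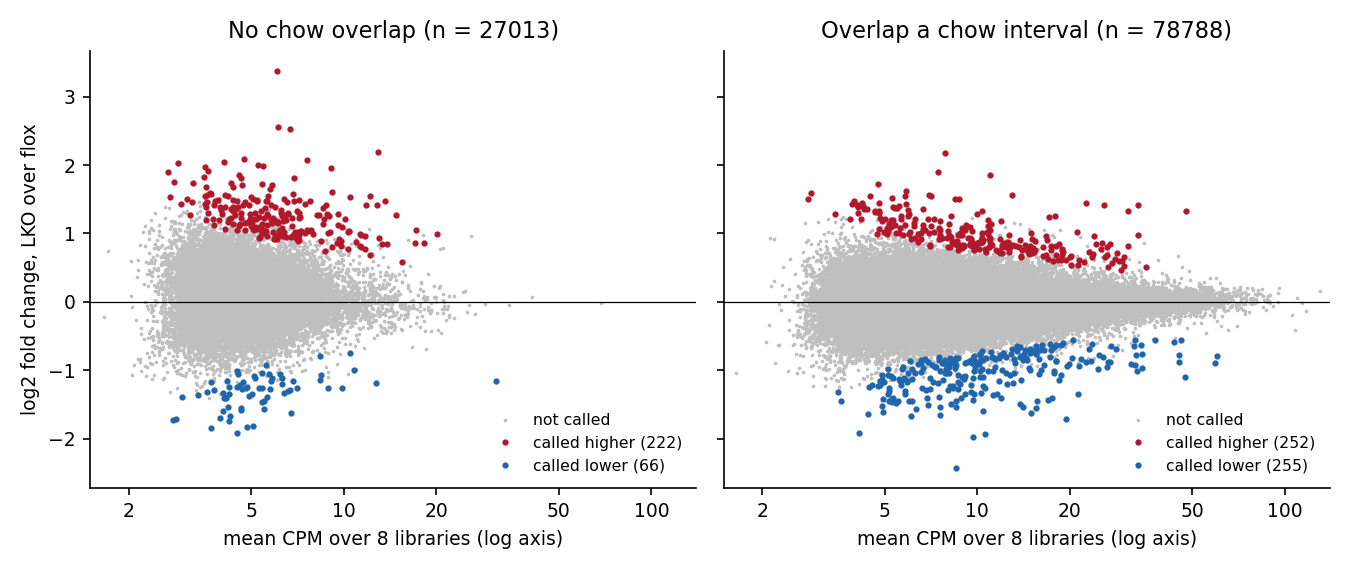
Each point is 1 high-fat interval, with mean CPM over 8 libraries on the x axis (log scale) and the log2 fold change of LKO over flox on the y axis, for intervals without chow overlap (left) and with it (right). Coloured points passed the edgeR threshold: 222 higher and 66 lower on the left, 252 and 255 on the right.

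Neighbours of the called members were also compared. Of the 222 higher members, 159 had an overlapping interval within 5000 bp, of which 150 had a fold change of the same sign and 60 were called higher themselves. The median log2 fold change was 1.22 in the higher members and 0.58 in those neighbours. For the 66 lower members, 51 had such a neighbour, 48 of them with the same sign and 22 called lower. Several members can share a neighbour: the 159 had 111 distinct neighbours and the 51 had 37, so these counts are not separate agreements. Over all overlapping intervals 46.8% had a positive fold change, 0.32% were called higher and 0.324% lower.

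The lowest p-values of any members fell in a stretch of chromosome 13 with no gene of any kind listed inside it. Of 14 members between 52176489 and 52195722, 12 were called higher in LKO, over 13.8 kb (chr13:52180997-52194802), and 4 of the 5 overlapping intervals among them were called higher too. The stretch was singled out after its values were seen, through the member with the largest fold change. Nearest on either side were noncoding genes, Gm33041 at 25.6 kb and 4921525O09Rik at 52.3 kb. The nearest coding genes were Diras2, a Ras-like GTPase, at 307 kb and Gadd45g, a growth-arrest and DNA-damage response gene, at 328 kb. At 52187442 to 52187942 the levels were 1.91, 0.390, 0.754 and 1.15 CPM in flox 1 to 4, and 3.97, 6.95, 13.8 and 19.4 CPM in LKO 1 to 4. All LKO values lay above all flox values, and they differed among themselves, with LKO 4 highest. The log2 fold change was 3.38 (SE 0.40, edgeR adjusted p = 2.7e-05).

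Summed over the 14 members, levels were 42.8, 29.6, 42.1 and 34.9 CPM in flox 1 to 4, and 76.3, 111, 158 and 186 CPM in LKO 1 to 4. Every LKO library was above every flox library, LKO 1 least. The called log2 fold changes ran from 1.18 to 3.38. At 52185745 to 52186245 levels were 1.78 ± 0.746 CPM in flox and 10.4 ± 3.67 CPM in LKO (SD, n = 4), with log2 2.56 (SE 0.29, edgeR adjusted p = 1.59e-05). At 52188073 to 52188573 they were 4.66 ± 1.11 and 21.2 ± 10.2 CPM (log2 2.18, SE 0.26, edgeR adjusted p = 2.23e-05). Of the 12 called members here, 8 are among the 64 called with any library left out. On chow, 4 intervals were listed in the stretch. Their LKO means were 4.28, 4.84, 3.001 and 4.47 CPM, and their flox means 6.02, 6.09, 4.48 and 5.92 CPM (n = 3 each, scaled to total counts), so in that table no mean was higher in LKO. The tables were made separately, and the difference between the diets at this stretch was not tested.

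At the miR-290 cluster, 6 consecutive members (chr7:3213936-3219969) were all called higher in LKO. The nearest coding gene is Nlrp12, an inflammasome-family regulator of myeloid cells, one bound of which lies inside the member that holds the Mir290a hairpin. The cluster was picked out after its values were seen. At 3217466 to 3217966 levels were 1.46, 2.34, 3.52 and 2.76 CPM in flox 1 to 4 and 5.26, 8.27, 9.40 and 10.2 CPM in LKO 1 to 4, so the groups were separate. The log2 fold change was 1.72 (SE 0.27, edgeR adjusted p = 0.00079), and it passed with any library left out (highest adjusted p 0.00918). The member that holds the D7Ertd143e start and the Mir290a hairpin shown above (3218480 to 3218980) held 2.39 ± 0.473 CPM in flox and 6.62 ± 2.71 CPM in LKO (SD, n = 4; log2 1.48, SE 0.29, edgeR adjusted p = 0.00809). That call was lost without LKO 2 (edgeR adjusted p = 0.0799). The other 4 had log2 fold changes of 1.48, 1.81, 1.65 and 1.21, and each lost its call without LKO 4, with edgeR adjusted p up to 0.2, 0.0822, 0.055 and 0.151 over the 8 fits. The next interval (3220254 to 3220754), which holds miR-294-3p and overlaps a chow interval, rose by 0.92 (SE 0.21, edgeR adjusted p = 0.0254) and lost its call in 5 of the 8 fits (up to 0.139). The one after it had a log2 fold change of 0.02 (SE 0.26, edgeR adjusted p = 0.991).

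**Figure D3:**
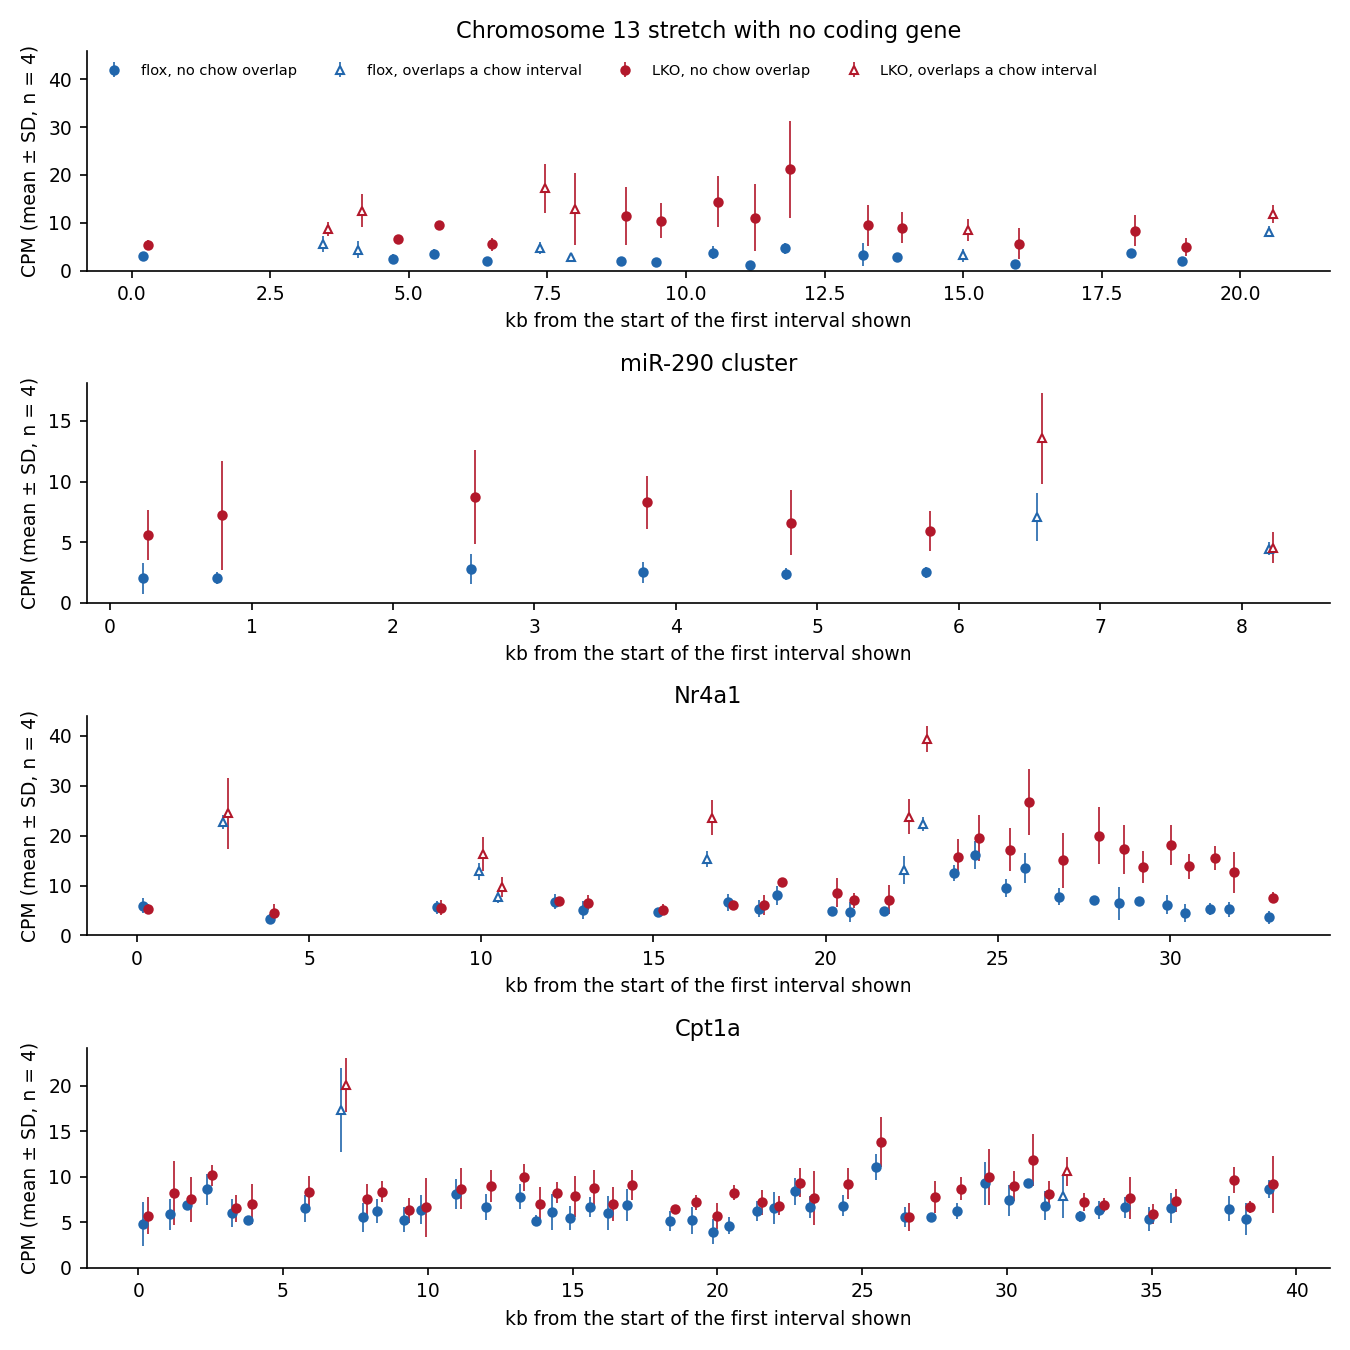
Mean CPM with SD (n = 4) of flox (blue) and LKO (red) is plotted against distance in kb from the first interval shown, with filled circles for intervals without chow overlap and open triangles for those with it. LKO stands above flox across the chromosome 13 stretch, the miR-290 cluster and the far end of Nr4a1, and along Cpt1a the LKO mean is above the flox mean at every interval shown, with none called.

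Nr4a1, an immediate early orphan nuclear receptor that controls glucose metabolism genes in liver, rose at 11 of its 25 members. They ran from the gene body past the gene end (chr15:101269039-101277174), with log2 fold changes between 0.85 and 1.603. At 101271603 to 101272103 levels were 7.19, 7.80, 6.28 and 7.37 CPM in flox 1 to 4, and 26.5, 22.6, 13.6 and 17.3 CPM in LKO 1 to 4. Flox values were tight and all LKO values lay above them, LKO 3 least (log2 1.48, SE 0.18, edgeR adjusted p = 4.6e-05). The interval at 101274976 to 101275476 rose by 1.54 (SE 0.19, edgeR adjusted p = 4.6e-05). Of the 11, 8 were called with any library left out, more than at any other named gene. The other 14 Nr4a1 members lay at lower coordinates and none was called.

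Egfr, the receptor of epidermal growth factor, had the most called members, 20 higher of 29, and all 29 had a positive fold change. At 16904598 to 16905098 on chromosome 11 levels were 2.47, 1.95, 4.65 and 2.996 CPM in flox 1 to 4, and 8.05, 10.3, 6.40 and 8.33 CPM in LKO 1 to 4. The groups were separate (log2 1.47, SE 0.25, edgeR adjusted p = 0.00268). Members were a minor part of this gene: 108 of its 137 intervals overlapped chow, and 53 of those rose too, with a median log2 fold change of 1.01 against 1.38 in the members. Called members at Egfr ran from 1.14 to 2.02, and 4 of the 20 passed with any library left out.

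Other genes had fewer called members. Insig2, which holds back sterol synthesis by retaining the SREBP escort protein in the endoplasmic reticulum, rose at 6 of 21 members. At 121304866 to 121305366 on chromosome 1 levels were 2.70, 1.56, 3.39 and 3.46 CPM in flox and 4.29, 9.15, 4.44 and 12.9 CPM in LKO (log2 1.48, SE 0.31, edgeR adjusted p = 0.0145). LKO 4 was highest, and the call was lost without LKO 2, LKO 4 or flox 2 (highest edgeR adjusted p 0.175). None of the 6 Insig2 calls held with every library left out in turn. Lpin1 rose at 5 members by 0.97 to 1.53. Its highest change was at 16533860 to 16534360 on chromosome 12, with 2.81, 2.73, 2.89 and 1.73 CPM in flox and 4.94, 3.64, 6.92 and 14.3 CPM in LKO (edgeR adjusted p = 0.0143), and without LKO 4 or flox 4 it was lost (up to 0.243). LKO 4 was again the highest library.

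Plin4, a lipid droplet coat protein, rose at 2 of 8 members, of which the first (17:56102901) held 8.88, 6.05, 9.30 and 3.69 CPM in flox and 9.55, 13.4, 17.9 and 34.0 CPM in LKO. The log2 fold change was 1.42 (SE 0.27, edgeR adjusted p = 0.00675), lost without LKO 4 or flox 4 (up to 0.095). At Lpin1, Insig2 and Plin4 alike, LKO 4 gave the highest summed level over all members: 554, 234 and 208 CPM, against 247 to 344, 81.9 to 118 and 75.1 to 115 CPM in the other LKO libraries. Flox libraries summed to 150 to 311 CPM at Lpin1, 48.8 to 82.2 CPM at Insig2 and 38.6 to 86.0 CPM at Plin4. The other LKO libraries thus overlapped flox at Lpin1 and Plin4, and at Insig2 LKO 1 lay just below the highest flox library. Agxt, the peroxisomal aminotransferase that detoxifies glyoxylate, rose at 7 of 12 members by 1.21 to 1.57. Its strongest held 3.93, 3.51, 3.02 and 3.23 CPM in flox and 10.3, 5.18, 6.92 and 18.7 CPM in LKO (edgeR adjusted p = 0.00426), lost only without LKO 4 (0.0575). Scp2 rose at 6 of 57 members, and 55 of the 57 had a positive fold change. Got1, cytosolic aspartate aminotransferase, rose at 5 of 24, all 24 positive, and at 43514562 to 43515062 on chromosome 19 from 3.97 ± 1.81 CPM to 10.1 ± 0.626 CPM (SD, n = 4; log2 1.33, SE 0.24, edgeR adjusted p = 0.00457).

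Gfra1 rose at 8 of 81 members, and all 81 had a positive fold change with a median of 0.73, against 0.18 over its 13 overlapping intervals. At 58456496 to 58456996 on chromosome 19 it held 5.51, 7.70, 5.78 and 4.72 CPM in flox and 12.0, 12.4, 14.6 and 9.47 CPM in LKO (log2 1.02, SE 0.20, edgeR adjusted p = 0.00671). Lepr, the leptin receptor, rose at 3 of 12 members by 1.27 to 1.90. At 101719063 to 101719563 on chromosome 4 it held 1.98 ± 0.504 CPM in flox and 6.59 ± 1.09 CPM in LKO (log2 1.74, SE 0.27, edgeR adjusted p = 0.000888), and it passed with any library left out. Il1r1, the interleukin-1 receptor, rose at 3 of 30 members by 0.96 to 1.09, and Nnmt, which methylates nicotinamide, at 3 of 21 by 0.86 to 1.37. The Il1r1 member with the largest rise was intergenic, 46823 bp from the gene, and passed with any library left out. The other 2, in the gene body, each lost their call in 5 of the 8 fits. Hgd, of tyrosine breakdown, rose at 3 of 27, and Dhx40, an RNA helicase, at 3 of 7. Those at Dhx40 were intergenic, 2675, 3317 and 44848 bp from the gene. Emilin2 rose at 4 of 13 members, and Lpin2 had 2 higher and 1 lower.

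Single members away from these genes rose as much. Near Smndc1, a splicing factor, 13.5 kb off (19:53404197), levels were 1.91, 2.05, 1.26 and 1.84 CPM in flox and 3.86, 7.94, 10.8 and 8.08 CPM in LKO (log2 2.09, SE 0.30, edgeR adjusted p = 0.000304). Near Ang, the ribonuclease angiogenin, the log2 fold change was 1.81 (SE 0.27, edgeR adjusted p = 0.000448), and in the body of Hip1r, a clathrin-adaptor protein, 1.496 (SE 0.25, edgeR adjusted p = 0.00135). All 3 passed with any library left out. On chromosome 12, 5 of the 6 members assigned to Gm40847 rose, all of them intergenic and 43.5 to 49.3 kb from the gene. The strongest (19122459 to 19122959) held 4.16, 2.83, 2.64 and 1.959 CPM in flox and 9.23, 8.60, 12.9 and 18.6 CPM in LKO (log2 2.07, SE 0.25, edgeR adjusted p = 4.09e-05). It lay 512100 bases from any chow interval. Of the 2787 members with no coding gene within 50000 bp, 30 were called (1.08%), near the 1.07% called over all members. All 30 were higher, 12 of them in the chromosome 13 stretch, against 0.822% of all members called higher. Among the 6073 overlapping intervals of that kind 32 were called higher (0.527%, against 0.32% of all overlapping intervals) and 12 lower.

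Of the 66 lower members 16 lay at Cyp2b13 and 10 at Ces1d. Cyp2b13, a female-biased cytochrome P450, fell at 16 of 35 members, by 1.11 to 1.82, and at 10 of 15 overlapping intervals. At 26094735 to 26095235 on chromosome 7 levels were 9.89, 10.04, 4.27 and 7.60 CPM in flox 1 to 4, and 3.54, 2.21, 3.003 and 2.78 CPM in LKO 1 to 4. Flox 3 was the lowest of its group and still above all LKO values (log2 -1.47, SE 0.26, edgeR adjusted p = 0.00423). Cyp3a41a, another female-biased P450, fell at 3 of 12 members. At 145692328 to 145692828 on chromosome 5 it held 8.32, 7.80, 10.1 and 6.68 CPM in flox and 2.15, 3.09, 2.09 and 3.79 CPM in LKO (log2 -1.56, SE 0.25, edgeR adjusted p = 0.000877). Both calls held with any library left out. Cyp2a5, a P450 that oxidises coumarin and nicotine, fell at 4 of 10 members, and Gsta3, a glutathione transferase, at 4 of 9. None of those 8 held with every library left out in turn. Overlapping intervals fell as well, 1 of 7 at Cyp3a41a, 2 of 8 at Cyp2a5 and 15 of 30 at Gsta3. These genes lie in clusters of near-identical copies, so the share of reads assigned to each copy is uncertain.

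Ces1d, a carboxylesterase that hydrolyses triglycerides, fell at 10 of 23 members, while none of its 6 overlapping intervals was called. None of those 6 had a positive fold change either, with a median log2 of -0.44 against -1.15 in the members. At 93173428 to 93173928 on chromosome 8 levels were 5.73, 8.97, 4.398 and 9.33 CPM in flox and 2.47, 2.76, 1.04 and 1.14 CPM in LKO, a log2 fold change of -1.91 (SE 0.31, edgeR adjusted p = 0.00135), the largest fall of any called member. Of the 10, 2 held with any library left out. Ces1d too has near-identical neighbours.

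Other genes had fewer falling members. Fads2, a desaturase of polyunsaturated fatty acid synthesis, fell at 1 of 44 members, from 9.78, 9.95, 11.2 and 14.8 CPM in flox to 5.36, 5.96, 4.83 and 5.56 CPM in LKO (19:10085862; log2 -1.07, SE 0.20, edgeR adjusted p = 0.00469). The groups were well apart and the call held in all 8 fits with 1 library left out. Ppara fell at 1 of 70 members, from 9.44 ± 2.69 to 4.20 ± 1.797 CPM (SD, n = 4; log2 -1.15, SE 0.25, edgeR adjusted p = 0.0187), lost without LKO 3, LKO 4 or flox 4 (up to 0.162). Abcc2, which exports bilirubin conjugates into bile, fell at 2 of 39 members, and all 39 had a negative fold change (median -0.63). Acaa1b, a peroxisomal thiolase, fell at 2 of 5 members and Dlec1, its neighbour, at 3 of 5, and none of these 5 calls held with every library left out in turn. Of their overlapping intervals, 8 of 10 fell at Dlec1 and 0 of 6 at Acaa1b. Rgs16, a regulator of G protein signalling, fell at 2 of 5 members, and by 1.19 on the log2 scale at 153745327 to 153745827 on chromosome 1, from 10.6, 27.5, 12.6 and 19.9 CPM to 8.37, 9.60, 4.96 and 8.08 CPM (SE 0.23, edgeR adjusted p = 0.00695, lost without flox 2 at 0.0759). Sphk2, a sphingosine kinase, was the only 1 of the 10 highest members by level to be called: it held 37.3, 57.0, 34.2 and 44.4 CPM in flox and 34.2, 22.0, 13.1 and 7.32 CPM in LKO (log2 -1.16, SE 0.23, edgeR adjusted p = 0.00907). LKO 1 lay within the flox range there, and the call was lost without LKO 3 or flox 2.

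**Figure D4:**
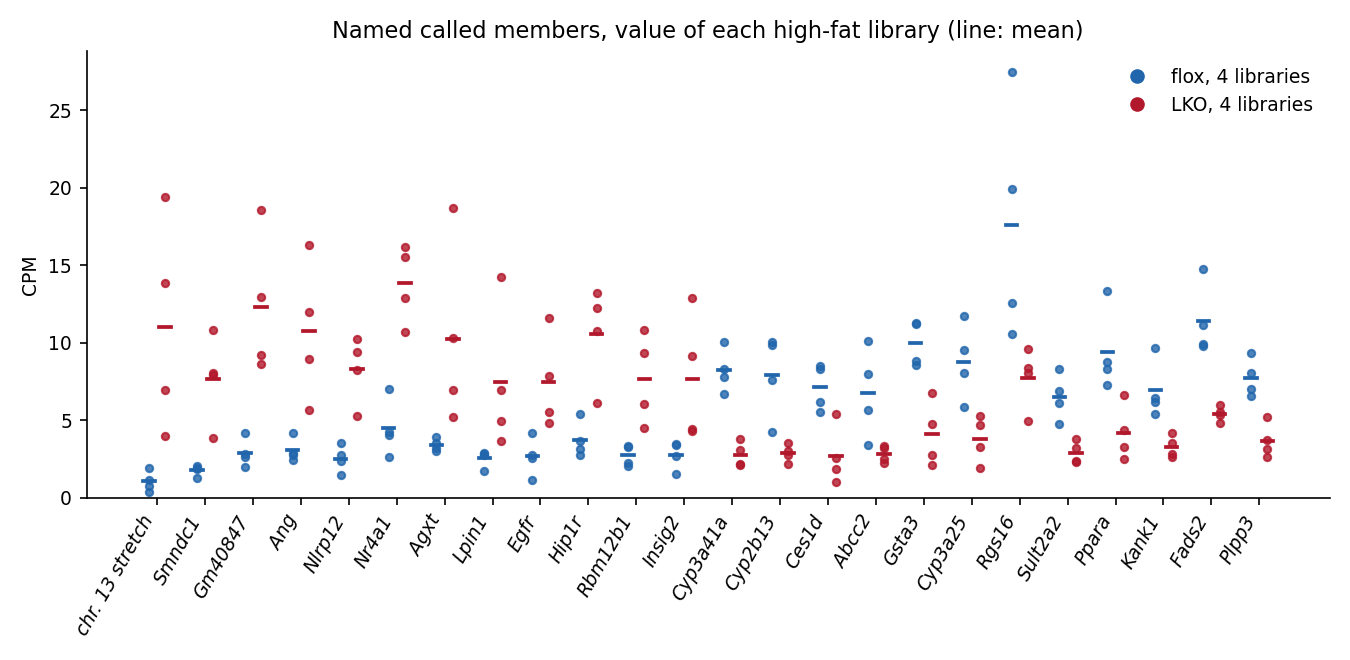
Points are single high-fat libraries (4 flox in blue, 4 LKO in red) and lines their means, in CPM on a linear axis from 0, for the 12 called members with the largest rise and the 12 with the largest fall, 1 per gene, among those whose groups do not overlap and whose level is at least the members' median. Libraries spread widely within LKO at the rising members, as in the chromosome 13 stretch (3.97 to 19.4 CPM), and within flox at Rgs16 (10.6 to 27.5 CPM).

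None of the other 9 highest members by level was called. Zpr1, a zinc finger protein, held the highest level of all, 45.4, 73.0, 73.1 and 84.2 CPM in flox and 97.2, 49.2, 63.7 and 61.7 CPM in LKO, 48 bases from a chow interval (log2 -0.02, SE 0.15). C1galt1, Nfkbia, Lims1, Ahcyl1, R3hdm2, Gm33049 and Rnf44 lay 0 to 45 bases from a chow interval, with log2 fold changes between -0.17 and 0.16 and standard errors of 0.10 to 0.13. Sox13, a transcription factor gene, differed in level between animals of each group: 36.1, 16.0, 10.7 and 7.14 CPM in flox, and 29.3, 13.02, 30.3 and 64.3 CPM in LKO (log2 0.96, SE 0.32, edgeR adjusted p = 0.203).

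Members were unevenly spread over pathways. Calls in each list are read beside the 1.07% called over all members, at which most lists hold few or none. Around the 22 genes of fatty acid oxidation and ketogenesis, which PPAR alpha drives in fasting, 236 of 436 intervals were members (54.1%, against 25.5% of all high-fat intervals). Their median level was 6.66 CPM, 0 rose and 3 fell (2 at Acaa1b and 1 at Ppara), and the median log2 fold change was -0.01, against 0.06 over all members. At hepatocyte identity genes 69 of 488 intervals were members (14.1%), with 0 called. The 419 overlapping intervals of those genes had 1 higher and 41 lower.

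Targets of CAR and PXR, the xenobiotic receptors, had 157 members of 366 intervals (42.9%), with 0 higher and 24 lower, at Cyp2b13 (16), Gsta3, Cyp3a41a and Sult2a1. Female-biased liver genes shared most of these calls through Cyp2b13, Cyp3a41a and Sult2a1: 110 of 318 (34.6%), 0 higher and 20 lower, a median log2 fold change of -0.51. Overlapping intervals of both lists fell too, with 0 higher. Near CAR and PXR targets 34 of 209 were lower (median -0.42, against -0.19 in the members). Near female-biased genes 24 of 208 were lower (median -0.30). Bile acid synthesis and transport had 113 of 289 (39.1%), 0 higher and 2 lower, both at Abcc2, with a median of -0.46. Male-biased genes had 36 of 190 (18.9%) and 0 calls, too few members to read a lack of calls at 1.07%.

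Gluconeogenesis and fasting genes had 194 of 515 (37.7%), with 11 higher, all at Nr4a1, and a median of 0.10. Fatty acid and triglyceride synthesis had 228 of 611 (37.3%), with 7 higher (5 at Lpin1, 2 at Lpin2) and 2 lower (Fads2 and Lpin2). Its members had a median log2 fold change of 0.17, while its 383 overlapping intervals had 1 higher and 11 lower and a median of -0.14. The 2 sets weigh the genes differently: Lpin1 had 54 members and 19 overlapping intervals, Lpin2 47 and 24. Within the genes with called members the medians shared their sign: 0.79 and 0.41 at Lpin1, 0.44 and 0.11 at Lpin2, -0.40 and -0.35 at Fads2. Lipid droplet genes had 72 of 196 (36.7%) and 2 higher, both at Plin4. Cholesterol genes had 39 of 203 (19.2%) and 6 higher, all at Insig2. Inflammation and acute phase genes had 80 of 218 (36.7%), a median of 0.39 and 5 higher: 3 at Il1r1, 1 at Orm2 and 1 at Saa2, both acute-phase proteins. The list of EGF receptor and feedback genes had 51 of 311 (16.4%) and 20 higher, all at Egfr. Of the clock genes, Bhlhe40, a repressor in the clock loop, rose at 1 of the list's 65 members, an intergenic one 39002 bp from the gene. The list of AP-1 and immediate early genes had 56 members and 0 calls, again too few members to read a lack of calls at 1.07%. Nr4a1, an immediate early gene with 11 higher members, was counted under gluconeogenesis and fasting and not in that list.

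For the lists of other cell types, calls are read beside the 1.07% called over all members, at which lists of this size hold few or none. Sinusoidal endothelium had 76 of 189 (40.2%) with 1 lower, at Eng, a co-receptor of the TGF beta family, and Kupffer and macrophage genes had 34 of 99 (34.3%) with 0. Stellate genes had 11 of 47, lymphocyte genes 7 of 43, neutrophil genes 3 of 14 and biliary genes 5 of 53, all with 0 calls. Each list's calls rested on 1 to 4 genes. The lists are a description: intervals of a gene share their source and no test over a list was made.

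**Figure D5:**
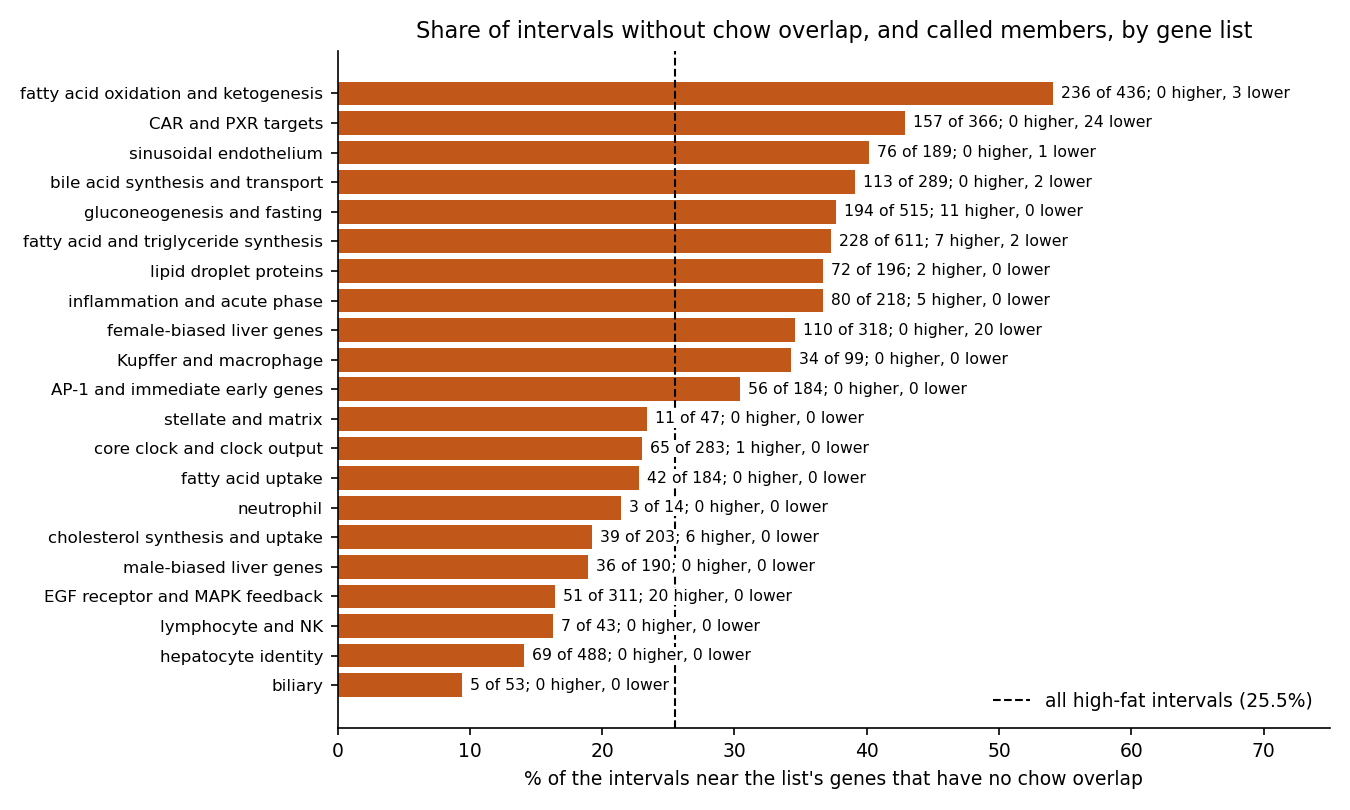
Bars show, for each of the 21 gene lists, the percent of high-fat intervals nearest to its genes that have no chow overlap (x axis from 0), with the number of members, of intervals and of members called higher or lower beside each bar. The dashed line is the 25.5% over all high-fat intervals, and fatty acid oxidation at 54.1% and biliary genes at 9.43% lie at the ends.

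Starts of genes were rare among members. Of the members on chromosomes with listed start windows, 799 (3.03%) overlapped one, against 11349 overlapping intervals (14.9%). In the 620 start windows that lay at least 150 bases inside a member, the median GC content was 54.3%, against 61.7% in the 11697 windows inside overlapping intervals and 52.7% over all 32851 windows. The GC box (GGGCGG on either strand) was found in 35.2% of the windows in members, 65.1% of those in overlapping intervals and 35.7% of all windows. The TATA box (TATAAA) was found in 11.1%, 6.38% and 13.6%, the AP-1 site (TGACTCA) in 7.90%, 3.54% and 5.20%, the nuclear receptor half-site (AGGTCA) in 16.5%, 12.9% and 16.3%, and the CCAAT box in 34.0%, 37.4% and 37.4%, each counted on both strands.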

How the data were processed

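ATAC-seq was made from 14 livers, each library from 1 animal as numbered in the labels. The submitters' processing notes name the build mm10 and, without their roles, MACS2 2.2.7.1, HOMER 4.11, Bowtie2 2.4.2, bedtools, ChIPseeker 4.1.1, DESeq2 4.2.0 and Trim Galore 0.6.7. The authors deposited 1 table per diet with raw read counts per interval and library. The authors also deposited a score per interval, whose scale the sources used here do not give.

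Intervals were compared between the tables by coordinates (1-based). The high-fat counts were tested with edgeR 4.0.16 (TMM scaling, quasi-likelihood, Benjamini-Hochberg over all 105801 intervals, 0.05) in R 4.3.3, and the low-count filter removed 0 intervals. CPM was scaled to the reads in intervals after TMM scaling. The test was checked on simulated data. Intervals were named by the nearest protein-coding gene within 50000 bp (RefSeq, GRCm38.p6, bounds without strand). Alternatives used DESeq2 1.42.0, limma 3.58.1, other scalings, filters, membership rules and each library left out. Summaries used Python 3.11.15 with pandas 2.3.3 and matplotlib 3.10.9.

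Genes were named by rule: the largest called changes with separate groups, the highest levels, the most members, the longest runs, 3 or more called members, the lowest p of each of 21 lists, and called members at start windows. The members, lists and rules were chosen with earlier results of these data known. The chromosome 13 stretch, the miR-290 cluster, Matr3, Orm2, Saa2, Sult2a1 and other genes outside the rule were chosen after their values were seen. One gene that the rule names is not reported here. Calls were judged against the spread between animals of 1 study, and precision is limited by a median of 40.5 reads per member and library.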

Additional observations from a re-analysis of the deposited data

Results flagged for a closer look

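In 8 of 168 groups of 4 libraries checked, 1 library stood apart from the other 3 by more than Dixon's 95% critical value. Chance flags about 1 group in 20. At Gm40011 (2:173141016) LKO 3 held 18.2 CPM against 14.5 to 14.6 in the other LKO libraries. At C1galt1 (6:7844453) flox 2 held 35.6 CPM against 41 to 41.6. At Insig2 (1:121300140) LKO 4 held 10.7 CPM against 3.11 to 4.05. In the miR-290 cluster (7:3214457, nearest Nlrp12) flox 3 held 2.76 CPM against 1.73 to 1.85. At Acaa1b (9:119150695) LKO 2 held 7.17 CPM against 2.09 to 2.9. At Lpin1 (12:16533860) flox 4 held 1.73 CPM against 2.73 to 2.89. At Rnf44 (13:54687991) LKO 1 held 28.9 CPM against 25.1 to 25.5. At Plin4 (17:56103665) LKO 4 held 43.2 CPM against 14.1 to 18.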

How the results depend on the processing

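With a replicate block edgeR called 482 members (352 higher, 130 lower) and 938 overlapping intervals (441 higher, 497 lower). Same-numbered LKO and flox libraries correlated by 0.07, 0.13, 0.18 and -0.01 in their deviations from the group means, and LKO 1 correlated best with flox 2 (0.15), so the numbers were not taken to pair the animals. With limma voom and quality weights 185 members were called, 141 of them higher, and 471 overlapping intervals, 216 of them higher. Counting overlaps of up to 250 bases as no overlap gave 31856 members and 101 lower calls. With each library left out in turn, members called ranged from 104 to 388, higher from 86 to 302, lower from 18 to 134, overlapping intervals called from 200 to 803, higher from 100 to 327 and lower from 97 to 479. Higher calls were 65.3% to 83.5% of called members in those fits. DESeq2 called 314 members, other scalings 286 and 294, and filters 288. No result named here changed sign. Of 65 called named members, voom lost 24, DESeq2 6, and the fit without LKO 4 33. The cause of these changes was not tested.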
